A study of Homo sapiens with 2 samples.

Results

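The replication-dependent histone genes encode the histones that are made in bulk while DNA is copied. They were taken as all genes of the deposited level table whose symbols follow the pattern of H1-1 to H1-5, H2AC, H2BC, H3C or H4C with a number, and this gave 62 genes of 25105. The members were 5 H1, 15 H2A, 17 H2B, 13 H3 and 12 H4 genes, of which 51 lay on chromosome 6 and 11 on chromosome 1. N6-methyladenosine (m6A) is a common internal modification of mRNA, and the authors' list of m6A peaks placed 52 of its 49746 peaks in these genes. Both libraries came from Huh-7, a human liver cancer cell line labelled WT in genotype and grown without treatment. Ribosomal RNA was removed, the remaining RNA was broken into fragments, and the library called IP holds those that an m6A antibody captured, while the input library holds fragments before capture. The strand was marked with dUTP. The labels' protocol speaks of an adipose type although the cell line is given as Huh-7. With 1 library of each kind no value below has a replicate check or a test between groups, and read depth is unknown for both libraries. The liver genes ALB (1202 FPKM) and AFP (2380 FPKM) were high in the input, and of the fat cell genes ADIPOQ and LEP were not listed and PLIN1 stood at 0.0690 FPKM.

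Core histones pack DNA into nucleosomes. H3 and H4 form the central tetramer, H2A and H2B add a dimer on each side, and H1, the linker histone, binds where DNA enters and leaves. The genes stand in clusters, have mostly no introns, and their main mRNAs end in a stem-loop bound by SLBP instead of a poly(A) tail. Some histone genes also make longer transcripts that run past the stem-loop and carry a poly(A) tail. Removal of ribosomal RNA, as used here, keeps RNA with and without a poly(A) tail.

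Histone mRNAs were among the most abundant of the input library. The lowest member stood at 0.213 FPKM (a level scaled to gene length and library size), the median at 94.3 and the highest at 616, and 59 of the 62 members were at 1 FPKM or more. The median over all genes listed was 1.29 FPKM. The level of a histone mRNA in a bulk library depends on how many cells were copying DNA and on the RNA in each of them, and these cannot be told apart here.

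All 5 H1 genes were abundant. H1-2 stood at 390.1 FPKM, H1-5 at 172, H1-4 at 140, H1-1 at 100.4 and H1-3 at 39.3, so that the highest of these linker histones was at about 10 times the level of the lowest (390.1 against 39.3 FPKM). H2A genes ran from 12.3 FPKM (H2AC15) through a median of 132 to 468 FPKM (H2AC18). Next to H2AC18 stood H2AC19 at 454 and H2AC12 at 256 FPKM, while H2AC4 (155), H2AC14 (96.1), H2AC6 (82.0), H2AC11 (50.0) and H2AC7 (46.3) lay in the middle and lower part of the range. H2B genes had the lowest median of the 5 classes, 32.4 FPKM, but also the single highest member, H2BC12 at 616 FPKM. H2BC17 (231), H2BC4 (134), H2BC5 (126), H2BC3 (123), H2BC11 (111) and H2BC13 (85.4) followed it, and 9 further genes stood between 5.11 (H2BC14) and 39.3 FPKM (H2BC8). These included H2BC9 at 32.4, H2BC18 at 26.1, H2BC6 at 13.7 and H2BC15 at 7.73 FPKM. The other end of the H2B class was H2BC1, a histone gene known from testis, at 0.402 FPKM. H3 genes fell into a group of 9 between 88.8 FPKM (H3C10) and 457 FPKM (H3C2), with H3C7 at 306 and H3C13 at 101 FPKM, and a group of 4 at low level. The latter were H3C6 at 3.30, H3C4 at 1.19, H3C12 at 0.504 and H3C8 at 0.213 FPKM. H4 genes, which nearly all encode the same protein, ran from 18.9 FPKM (H4C9) through a median of 84.4 to 408 FPKM (H4C2). H4C3 (273), H4C12 (241) and H4C1 (111) lay in the upper part and H4C5 (53.7) and H4C8 (47.5) in the lower. The positions of the 10 members of highest level, as the files give them, are chr6:27146361-27146855 for H2BC12, chr1:149842188-149842736 for H2AC18, chr6:26031589-26032099 for H3C2, chr1:149851061-149851624 for H2AC19 and chr6:26026815-26027252 for H4C2. Those of the other 5 are chr6:26055740-26056470 for H1-2, chr6:26250142-26250635 for H3C7, chr6:26020451-26020958 for H3C1, chr6:26103933-26104337 for H4C3 and chr6:26045384-26045869 for H3C3. H2AC19, H3C1, H4C3 and H3C3 lie on the plus strand and the others on the minus strand. The classes overlapped over most of their ranges, and genes of a class are not replicates, so no order of the classes is given.

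**Figure D1:**
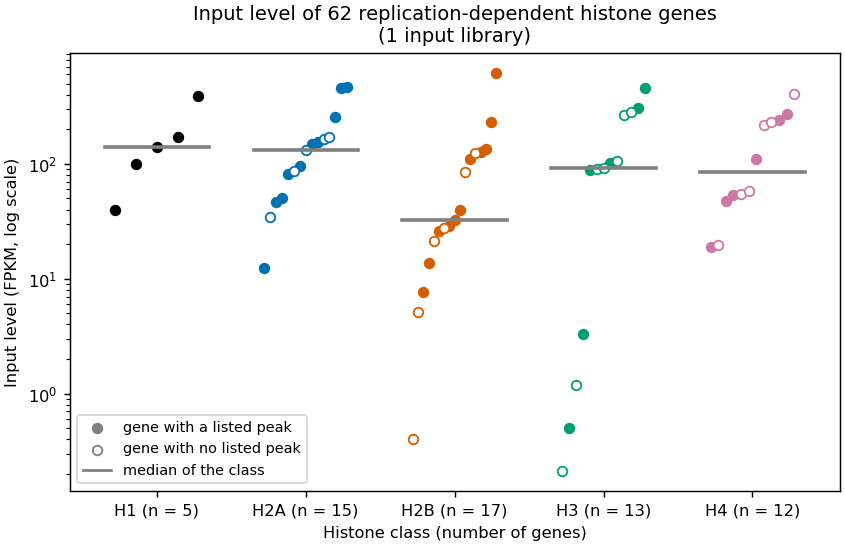
Input level of each of the 62 genes by class (log axis), from 1 input library; filled points are genes with a listed peak, open points genes without, and grey lines class medians. The class medians lie between 32.4 FPKM (H2B) and 140 FPKM (H1), and 4 H3 genes stand apart at 3.30 FPKM or less.

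Some members stood at nearly equal levels. On chromosome 1 the H2A genes H2AC18 and H2AC19 stood at 468 and 454 FPKM, the H3 genes H3C14 and H3C15 at 92.5 and 90.8 FPKM, and the H4 genes H4C14 and H4C15 at 57.8 and 54.5 FPKM. Within each pair the levels differed by a factor of 1.06 or less. Such pairs are known as closely similar copies, their sequences were not compared here, and the treatment of reads that match several places is a step not given in the sources used here. H2AC18 and H2AC19 differed in the log2 fold of their peaks, 0.84 against 1.54, and the other 4 genes had no peak. Levels and peaks of these 6 genes are uncertain as values of single genes, and the same holds in a lesser degree for coding sequences shared within each class.

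Many H2A and H2B genes stand head to head and share the DNA between their start sites. In these data 9 such H2A and H2B pairs were found on opposite strands with 218 to 282 nt between their listed starts. The level of the H2B gene exceeded that of its H2A neighbour in 4 pairs, as for H2BC12 (616 FPKM) over H2AC12 (256 FPKM) and H2BC17 (231) over H2AC17 (165). It was the lower in the other 5. The most uneven pair was H2AC14 at 96.1 FPKM beside H2BC14 at 5.11 FPKM, a ratio of 18.8, followed by H2AC20 (149.8) beside H2BC21 (28.9) with 5.18 and H2AC8 (170.2) beside H2BC8 (39.3) with 4.33. In 4 pairs the levels were within 2-fold of each other. Across the 9 pairs Spearman's rho of the levels was 0.43, a description of 1 library.

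**Figure D2:**
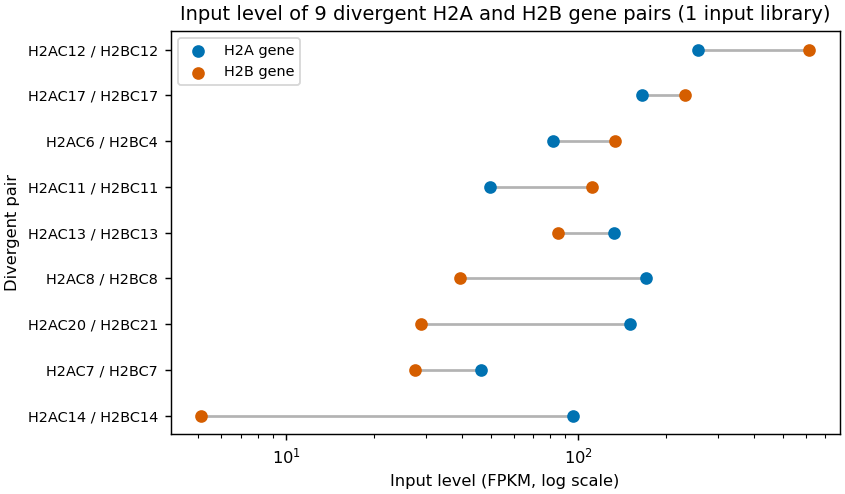
Input level (log axis) of the H2A gene and the H2B gene of each of 9 divergent pairs, 1 pair a row, from 1 input library. The distance between the points of a row runs from a ratio of 1.40 (H2AC17 and H2BC17) to 18.8 (H2AC14 and H2BC14).

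The windows from 250 bases before to 50 bases after the start of 57 members were read from RefSeq (GRCh38.p14), and they differ by class. The octamer ATTTGCAT, the binding motif of POU2F1 (OCT1), a factor known to drive H2B genes, was searched on both strands, which also finds its reverse complement ATGCAAAT. It was present in 14 of 17 H2B windows and 10 of 14 H2A windows, but in 1 of 11 H3 windows and in none of 5 H1 and 10 H4 windows, against 1.77% of all 35116 windows in the table. The H3 match, in H3C4, is the same site as that of H2AC7 (chr6:26199394-26199423), away from the listed H3C4 gene (26196784 to 26197286). RefSeq gives H3C4 2510 nt against 503 nt listed, and the octamer begins 119 bases before the RefSeq start of both genes. In 8 H2B windows the octamer lay 38 to 49 bases before the RefSeq start and read in the direction of the gene. In 7 of the 9 divergent pairs the same octamer lay in the windows of both genes, and H2AC12 had no window in the table. The sites of 5 of these pairs and that of H2BC12, the member of highest level, are printed to show how the bases beside the octamer vary, 30 bases each on the strand of the H2B gene, 5' to 3', with the octamer or its reverse complement in capitals.
H2BC12 (chr6:27146886-27146915, minus strand): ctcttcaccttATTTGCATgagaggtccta
H2BC11 (chr6:27132824-27132853, minus strand): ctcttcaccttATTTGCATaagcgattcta
H2BC8 (chr6:26216718-26216747, minus strand): ttgaattctttATTTGCATgaaaggcctat
H2BC14 (chr6:27814963-27814992, plus strand): ttctactcctaATTTGCATaataacattta
H2BC21 (chr1:149886710-149886739, minus strand): tcggagccctaATTTGCATaaggtggttat
H2BC17 (chr6:27893265-27893294, plus strand): gcttcctcttaATGCAAATgagctttctga
H2BC12 and H2BC11 share the 11 bases before the octamer as well. H2BC14 and H2BC21 hold the octamer as H2BC12 does, in the same direction, at 5.11 and 28.9 FPKM against 616 FPKM. H2B genes with an octamer ran from 0.402 to 616 FPKM and the 3 without (H2BC5, H2BC13 and H2BC15) from 7.73 to 126 FPKM, so the ranges overlapped. The TATA element TATAAA (reverse TTTATA) was present in 70.2% of the 57 windows against 11.5% of all windows. The letters CCAAT (reverse ATTGG) were present in every H1, H2A, H2B and H3 window but in 2 of 10 H4 windows, against 34.6% of all. A match describes these letters and is no evidence of binding.

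Fewer histone genes carried an m6A peak than coding genes in general. Of the 59 members at 1 FPKM or more, 37 had a peak, a share of 62.7% (exact Clopper-Pearson 95% interval 49.1 to 75.0%). The share was 82.1% over all 13630 genes at that level and 96.2% over the 10550 protein-coding ones. With no level minimum 38 of 62 members had a peak (61.3%), beside 58.2% of all genes listed. Many histone genes are short, so other short genes were set beside them. Of 32 other coding genes of less than 1000 nt at 1 FPKM or more, 50.0% had a peak (31.9 to 68.1%). Of the 38 members of such a span and level, 55.3% had one (38.3 to 71.4%). The median level of the other short genes was 3.78 FPKM, well under that of the histones. The part of gene length in the histone share was not tested. A gene was counted as having a well-supported peak where any of its peaks reached 2-fold at an adjusted p below 0.001, and this held for 11 of the 59 members, or 18.6% (9.69 to 30.9%), against 56.8% of all genes and 67.5% of coding genes at 1 FPKM or more. It was 25.0% (11.5 to 43.4%) for the 32 other short coding genes and 7.89% (1.66 to 21.4%) for the 38 short members, with intervals that overlap. For 549 other coding genes within the quartiles of the members' levels it was 42.8%. The intervals cover counting error only.

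Where histone genes had a peak, its fold was mostly low, as it was in other genes of high level. Fold and adjusted p come from the authors' deposited table and serve only to describe peaks within that list. Over the 38 members with a peak the strongest peak had a median log2 fold of IP over input of 0.90, with a range from 0.38 to 5.00, against 1.76 over coding genes at 1 FPKM or more. For 23 of the 38 the strongest peak was under 2-fold, and 7 reached 4-fold. Among other coding genes the median fell with level, to 1.02 between 64 and 128 FPKM, 0.93 between 128 and 256 FPKM and 0.79 above that. Members in the same ranges had medians of 0.89, 0.83 and 0.61. At lower levels the members were above the others in some ranges and below them in others. They had 1.42 (7 genes) against 1.10 between 32 and 64 FPKM and 1.30 (3 genes) against 1.28 between 16 and 32 FPKM. Between 8 and 16 FPKM they had 1.50 (2 genes) against 1.57. A single member each gave 2.19 against 1.80 between 4 and 8 FPKM and 1.94 against 2.03 between 2 and 4 FPKM. Of the 37 members with a peak at 1 FPKM or more, 22 lay below the median of other coding genes in their range, 7 of them below the lower quartile, and 7 lay above the upper quartile. The share with a peak differed more. It was 57.1% of 14 members against 89.9% of 158 other coding genes between 64 and 128 FPKM, and 58.3% of 12 against 88.9% of 54 between 128 and 256 FPKM. Between 32 and 64 FPKM it was 70.0% of 10 against 93.5% of 386, and between 256 and 1024 FPKM 72.7% of 11 against 96.0% of 25. From 16 to 32 FPKM it was 50.0% of 6 against 97.4% of 1042. Ranges below 16 FPKM held 1 or 2 members each, with shares from 0 to 100%. Gene length was not matched in these ranges.

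**Figure D3:**
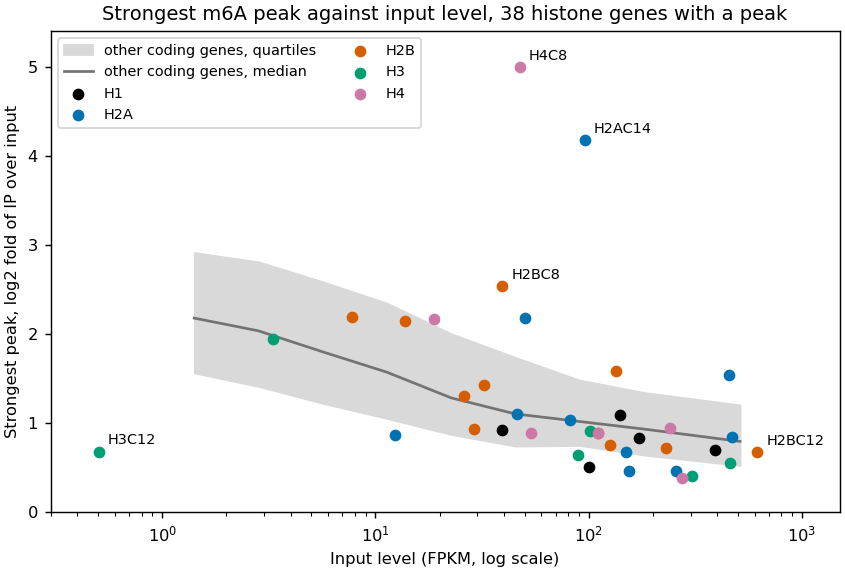
Log2 fold of the strongest peak against input level (log axis) for the 38 histone genes with a peak, coloured by class; the grey band and line give the quartiles and median of other coding genes by level. Of the 37 at 1 FPKM or more 22 lie below the grey line, while H4C8 at 5.00 and H2AC14 at 4.17 lie far above it.

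All 5 H1 genes had 1 peak each, and all of these lay inside the gene and were listed in the 3' UTR. The log2 folds were 1.09 for H1-4 (adjusted p 4.91e-118), 0.92 for H1-3 (6.85e-22), 0.83 for H1-5 (1.5e-70), 0.69 for H1-2 (1.97e-102) and 0.50 for H1-1 (8.33e-06). Of these H1-4 alone reached 2-fold. The peaks of H1-5 and H1-2 covered 100% and 99.2% of the gene, from 27866792 to 27867588 and from 26055740 to 26056464 on chromosome 6, from end to end. The peak of H1-1 covered 26.5% of its gene, toward the end.

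In the H2A class 10 of 15 genes had a peak. H2AC14 stood out with a log2 fold of 4.17 (18.1-fold, adjusted p 2.89e-113) over 99.8% of its 476 nt, on chromosome 6 from 27814302 to 27814776. No other listed gene or peak overlapped it on either strand. The next in this class was H2AC11 with 2.18 (6.07e-12) at chr6:27133692-27134516, then H2AC19 with 1.54 (0.00337) at chr1:149851211-149851624, H2AC7 with 1.10 (4.88e-73) and H2AC6 with 1.03 (5.88e-15). H2AC15 (0.86), H2AC18 (0.84), H2AC20 (0.67), H2AC4 (0.46) and H2AC12 (0.45) were under 2-fold. H2AC18 and H2AC19 had weakly supported peaks for their level, with adjusted p-values of 0.00745 and 0.00337, whereas H2BC12 at a like level had 3.91e-91. The H2A genes with no peak were H2AC8 (170.2 FPKM), H2AC17 (165), H2AC13 (132), H2AC16 (87.0) and H2AC21 (34.2), within the range of levels of those with a peak.

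In the H2B class 11 of 17 genes had a peak, and the 4 highest folds were in genes with a long listed span. The highest fold was that of H2BC8 with 2.54 (adjusted p 5.89e-52), on chromosome 6 from 26215259 to 26216108 in the 3' UTR, beginning 585 nt into a gene listed with a span of 1534 nt. H2BC15 followed with 2.19 (0.00196) at chr6:27852438-27852812, H2BC6 with 2.14 (0.000196) at chr6:26172284-26173782 and H2BC4 with 1.58 (2.94e-08) at chr6:26114873-26115097. H2BC9 had 1.42 and H2BC18 1.30, with adjusted p-values of 0.016 and 0.0525, so the latter is not past 0.05. H2BC21 (0.93), H2BC11 (0.89), H2BC5 (0.75), H2BC17 (0.72) and H2BC12 (0.67) were under 2-fold. The peak of H2BC12 covered the first 84.8% of the gene, from 27146436 to 27146855. H2BC3 (123 FPKM), H2BC13 (85.4), H2BC7 (27.6), H2BC10 (21.3), H2BC14 (5.11) and H2BC1 (0.402) had no peak.

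The H3 and H4 genes, whose products form the central tetramer of the nucleosome, had a peak in 6 of 13 and 6 of 12 cases. Among H3 genes H3C6 had the highest fold, 1.94 (adjusted p 1.41e-25), at chr6:26224249-26225894 and a level of 3.30 FPKM. H3C13 (0.91), H3C12 (0.68), H3C10 (0.63), H3C2 (0.55) and H3C7 (0.40) were under 2-fold. H3C2, at 457 FPKM, had its peak from its first base over 70.6% of the gene, on chromosome 6 from 26031739 to 26032099. H3C1 (282 FPKM), H3C3 (267), H3C11 (105), H3C14, H3C15, H3C4 and H3C8 had no peak. H4C8 had the highest fold of all members, a log2 fold of 5.00 (31.9-fold, adjusted p 4.21e-11), on chromosome 6 from 26277609 to 26278033. H4C9 had 2.17 (0.000831) at chr6:27139563-27139881, and H4C12 (0.94), H4C1 (0.89), H4C5 (0.89) and H4C3 (0.38) were under 2-fold. H4C2, the highest H4 gene at 408 FPKM, had no peak, and neither had H4C4 (232), H4C11 (216), H4C14, H4C15 and H4C13 (19.5). Shares of members at 1 FPKM or more with a peak were 5 of 5 for H1, 10 of 15 for H2A, 11 of 16 for H2B, 5 of 11 for H3 and 6 of 12 for H4. Their exact intervals, from 47.8 to 100% for H1 and from 16.7 to 76.6% for H3, overlapped.

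**Figure D4:**
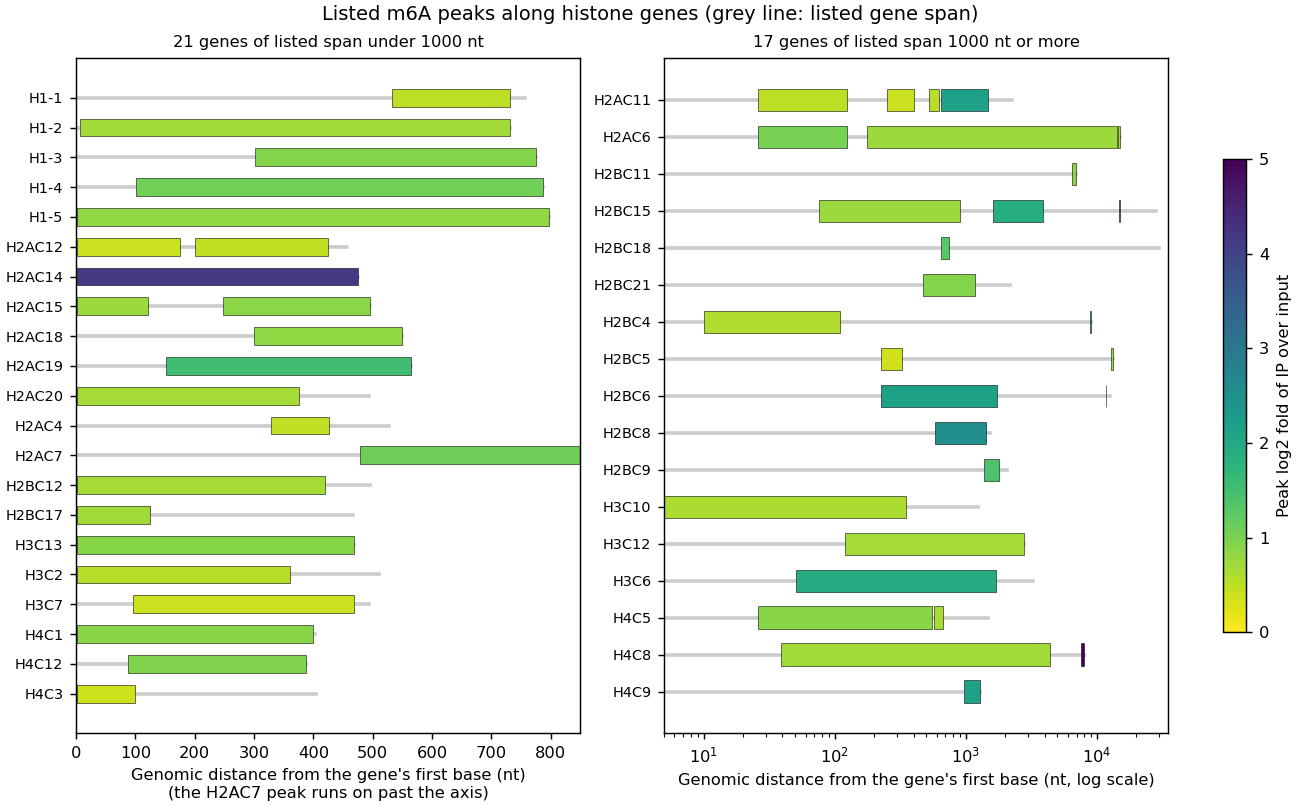
Every listed peak of the 38 genes with a peak, drawn by genomic distance from the listed first base of the gene, introns included, with bars coloured by log2 fold and grey lines for the listed span of the gene. Genes of a span under 1000 nt (left, linear axis) have peaks over a median of 70.6% of their span, with 4 of 23 at 2-fold or more, and 5 of the 8 longer genes with peaks in both parts (right, log axis) have the higher fold in the far part.

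The listed span of the gene went with the strength of the peaks. Of the 62 members, 39 had a span between 387 and 797 nt, the size of a stem-loop mRNA, and 23 a span between 1196 and 29685 nt, with none between. The longer genes had a lower level, with a median of 47.5 FPKM against 149.8 FPKM. At 1 FPKM or more 16 of 21 longer genes had a peak (76.2%, 52.8 to 91.8%) and 21 of 38 compact ones (55.3%, 38.3 to 71.4%), with intervals that overlap. The median log2 fold of the strongest peak was 1.42 for the 17 longer genes with a peak and 0.83 for the 21 compact ones. Of the 7 members with a 4-fold peak, 6 were longer genes and the other was H2AC14. A well-supported peak was present in 8 of 21 longer genes and 3 of 38 compact ones (H2AC14, H1-4 and H2AC7, whose peak lies mostly outside the gene). The split rests on the span in the authors' table. RefSeq gives 17 of the 23 longer genes a length of 396 to 542 nt. None of the 7 members with a 4-fold peak is long there. Of the compact genes 2 are long in RefSeq, H2BC12 with 8566 nt and H3C4 with 2510 nt. The part of level and of length in these differences was not tested, and a longer gene has more places for a peak.

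Within the longer genes, peaks that began past the length of a compact core histone gene (569 nt at most) had a median log2 fold of 1.50 (14 peaks, 0.61 to 5.00). Peaks that began nearer to the start had a median of 0.69 (15 peaks, 0.37 to 2.14). In H4C8 the peak over the first part of the gene, from 39 to 4384 nt, had 0.69, and that at the far end, from 7606 to 8030 nt, had 5.00. In H2AC11 the peaks starting at 26, 251 and 526 nt had 0.51, 0.40 and 0.53, and that from 651 to 1475 nt had 2.18. H2BC4 had 0.60 at its start and 1.58 at its far end, and H2BC5 0.37 and 0.75. Of 8 longer genes with peaks in both parts, 5 had the higher fold in the far part and 3 in the near part. The latter were H2AC6 (1.03 near and 0.68 far), H2BC6 (2.14 and 0.61) and H4C5 (0.89 and 0.66). Near and far are counted from the listed start, which for H2BC6 is not that of RefSeq. Its octamer site (chr6:26183642-26183671) lies just before the RefSeq start, and the far peak (26183746 to 26183870) covers that start. The near peak (26172284 to 26173782) lies upstream of it, so by RefSeq the order is reversed for H2BC6. The medians and counts given here keep the listed start. An adjusted p of at least 0.001 was listed for 5 of the 14 far peaks and for none of the 15 near ones. Distances are genomic and include introns, and the limit of 569 nt was set after the values were seen.

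**Figure D5:**
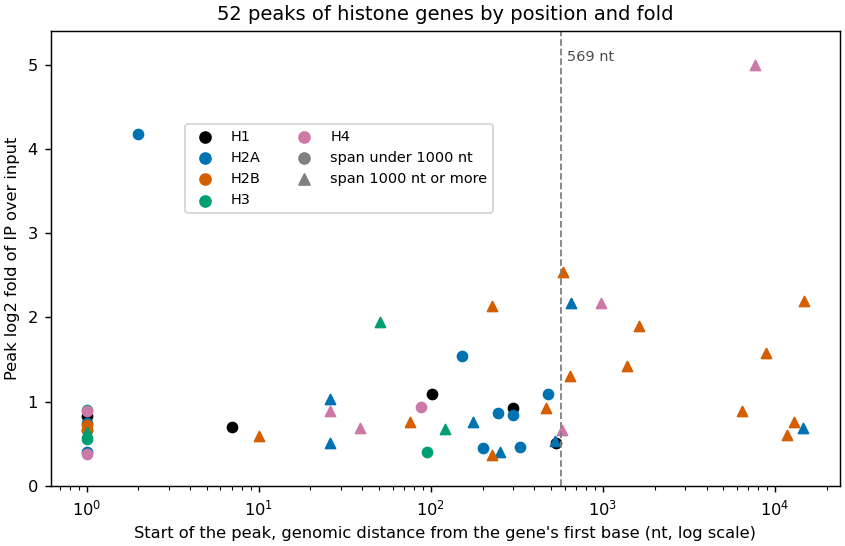
Log2 fold of each of the 52 peaks against its start, as genomic distance from the listed first base of the gene (log axis), coloured by class, with circles for genes of a span under 1000 nt and triangles for longer ones. The dashed line marks 569 nt, the longest compact core histone gene; 5 of the 7 peaks with a log2 fold of 2 or more start to the right of it.

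In the authors' assignment of peaks to regions, 35 of the 52 lay in 3' UTRs (67.3%, 52.9 to 79.7%), 14 in 5' UTRs (26.9%, 15.6 to 41.0%) and 3 in coding exons (5.77%, 1.21 to 15.9%). Over all 49746 peaks these shares were 49.2%, 12.3% and 20.7%. In histone genes, whose UTRs are short, a peak listed under a UTR often reaches over the coding part. In the compact genes, where peaks covered a median of 70.6% of the span, 10 of 23 peaks began at the first base and 11 ended at the last. The median log2 fold was 0.91 for 3' UTR, 0.65 for 5' UTR and 0.40 for coding exon peaks.

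The first 50 bases of a gene can be read from the same RefSeq windows. GGAC, the core of the commonest sequence context of m6A, stood in these 50 bases in 6 of 57 members (10.5%), against 18.9% of all 35116 windows, searched on the strand of the gene only. The longer form GGACT was in none of the 57, against 4.90% of all. Of 15 members with a RefSeq window and a peak over their first 50 bases, H2AC11 and H2AC15 held GGAC inside that peak. These sites are printed because they are the matches that fall under a listed peak, on the strand of the gene, 5' to 3', with GGAC in capitals.
H2AC11 (chr6:27133067-27133092, plus strand): tcgctatgtctGGACgtggcaagcag
H2AC15 (chr6:27838326-27838344, minus strand): acgtcatgtcgGGACgtgg
In both sites a g follows GGAC, so neither is the longer form GGACT. A match describes these letters and is no evidence of a methylated base. The peaks there had log2 folds of 0.51 and 0.75. The rest of the histone mRNA was not searched.

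The gene of a few peaks is uncertain. The peak listed under H2AC7, from 26196595 to 26198816 on chromosome 6, overlapped only 6.47% of that gene. It covered the whole listed span of H3C4, which lies on the same strand at 1.19 FPKM with no peak of its own. By RefSeq H3C4 is 2510 nt long and starts beside H2AC7, so more of this peak lies in H3C4 there. The peak listed under H3C12, a gene at 0.504 FPKM, ran over 59.1% of H2AC17, which lies on the same strand at 165 FPKM with no peak of its own. The peaks of H2AC15 and H2BC15 overlapped each other on opposite strands. The H2BC6 peak of 2.14 (26172284 to 26173782), counted above among the 4-fold and the well-supported ones, overlapped the gene AL353759 and a peak listed under it on the opposite strand. In all 7 of the 52 peaks overlapped the span of another listed gene. Of the 24 members with no peak, the other 22 were not overlapped by a peak of another gene on their strand.

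Histone genes outside this set, mostly replacement variants made through the whole cell cycle from mRNAs with a poly(A) tail, were set beside it. Of 14 listed, 13 were at 1 FPKM or more, and 12 of these had a peak (92.3%, 64.0 to 99.8%), beside 82.1% of all and 96.2% of coding genes at that level. The interval overlaps that of the replication-dependent genes, 49.1 to 75.0%. Their median level was 22.1 FPKM and the median log2 fold of their strongest peak 1.10. H2AX, the variant phosphorylated at DNA breaks, had 3.25 at 87.0 FPKM. MACROH2A1 had 2.29 (adjusted p 0.00608), while H2AZ1 had 0.84, H2AZ2 0.78 and H3-3A 0.81 (adjusted p 0.0528). A well-supported peak was present in 6 of the 13 (46.2%), beside 67.5% of coding genes. The H4 gene listed as H4-16, named H4C16 in RefSeq and so outside the symbol pattern, stood at 23.2 FPKM with 1.13. Level and gene length differ between these genes and the replication-dependent ones, and their part was not tested.

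Genes that make, process or degrade histone mRNA had a peak about as often as coding genes in general. Of 18 listed, 16 were at 1 FPKM or more and all 16 had a peak, as did 96.2% of coding genes. The median log2 fold was 1.62. SLBP, which binds the stem-loop, had the highest level but for UPF1, at 30.0 FPKM, and a weak peak of 0.56. NPAT, the coactivator of histone gene transcription, had 1.56, LSM10, a protein of the U7 particle that cuts histone pre-mRNA, 2.75, and TUT7, which adds uridines to histone mRNA on its way to decay, 3.66. CPSF3, the nuclease that makes the cut, had 0.63 (adjusted p 0.0349). LSM11 (0.755 FPKM) and RNU7-1, the RNA of the U7 particle, had no peak, and RNU7-1 spans 63 nt, less than the shortest listed peak. All 16 histone chaperone genes had a peak, with a median of 1.35, led by CHAF1A (2.85), a subunit of the factor that deposits histones behind the replication fork. S phase genes had a peak in 17 of 18 cases at 1 FPKM or more, the median was 0.87 over all 18 with a peak, and FEN1 (67.4 FPKM) had none. The shares of the chaperone and S phase genes with a peak were also near the 96.2% of coding genes. A well-supported peak was present in 3 of the 18 S phase genes at 1 FPKM or more (16.7%, 3.58 to 41.4%). This is near the 18.6% of the replication-dependent histone genes, so the low share is not particular to them. It was present in 9 of 16 chaperone genes (56.25%) and 11 of 16 genes of histone mRNA synthesis, processing and decay (68.75%). PCNA, the sliding clamp of DNA replication, stood at 83.1 FPKM with 0.76.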

How the data were processed

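1 IP and 1 input library of Huh-7 cells were sequenced in pairs. Tools named, with no role, in the submitters' processing notes are edgeR, StringTie, HOMER, HISAT2, FastQC and fastp. Genome build and peak settings were not given in the sources used here. Levels are FPKM of the input library, as deposited by the authors per the file headers. Each deposited peak has, per the file headers, a log2 fold (IP against input) with raw and adjusted p-value. Of all peaks 3007 start 1 below their gene start and none at it, so starts were taken to count from 0, and 1 was added. Listed starts of 49 of 57 members lay within 50 bases of those of RefSeq GRCh38.p14.

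Peaks were joined to genes by the authors' gene ID, and a gene took the log2 fold of its strongest peak. Biotypes came from RefSeq by symbol, synonym or gene ID (80.6% of genes). Intervals of shares are exact binomial (scipy 1.17.1, Python 3.11.15), those of medians are binomial on ranked values, and they cover counting error only. With 1 library of each kind no p-value was computed. Joins and shares were tested on simulated data. FPKM carries no read counts, so the precision that depth gives is unknown. Of 68 RefSeq symbols of the pattern, 62 were listed. All members are named, with positions for the 10 of highest level and the 10 of highest fold. Members, lists and alternatives were chosen with earlier results of these data known, and the limits of 1000 and 569 nt after the values were seen.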

Additional observations from a re-analysis of the deposited data

How the results depend on the processing

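No paired analysis was possible because there is 1 library of each kind. Of 65 alternative values, 61 stayed within the 95% interval of the value reported. They covered peaks of adjusted p under 0.001, level minimums of 5 FPKM and none, and joins by overlap. They also covered peaks free of other genes, peaks wholly inside their gene and the median peak of a gene. Many of the alternative values are class shares of few genes with wide intervals, as 47.8 to 100% for H1. Staying inside such an interval says little. The share of expressed histone genes with a peak ran from 55.9 to 66.1% under the alternatives run on coding genes too, whose share ran from 82.1 to 97.0%. It was 55.3% without members of span 1000 nt or more. Among histone peaks of 2-fold or more (16 peaks), 87.5% lay in 3' UTRs, 12.5% in 5' UTRs and 0% in coding exons. Without the 23 members of span 1000 nt or more, an alternative chosen after seeing the data, 7.89% of expressed members had a well-supported peak, against 18.6%; fewer and shorter genes enter by construction. Read depth is unknown, so a gene with no listed peak is one with none detected at this depth.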

Other observations

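The first transcribed base in the RefSeq windows was A in 32 of 57 histone genes (56.1%), against 44.4% of all 35116 windows. By class these were 3 of 5 H1, 7 of 14 H2A, 11 of 17 H2B, 4 of 11 H3 and 7 of 10 H4 genes. Of 15 members with a window and a peak over their first 50 bases, 10 began with A, and of the other 42 members 22 did. The listed starts and those of RefSeq were the same base in 32 of the 57 genes, so the first base is uncertain for the rest. Antibodies to m6A are known to bind also the methylated adenosine next to the cap of mRNAs that begin with A, and these libraries do not separate the marks.

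Across the 38 histone genes with a peak, Spearman's rho of input level and strongest log2 fold was -0.56, and across 10151 coding genes it was -0.33. Spearman's rho of gene span and strongest log2 fold across the 38 was 0.49. These are descriptions across genes of 1 pair of libraries, which share the depth of that pair, and genes are not independent replicates.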
